A study of Mus musculus with 25 samples.

Results

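Apoe, Apoc1, Apoc4 and Apoc2 are 4 neighbouring apolipoprotein genes of mouse chromosome 7, and they were followed here among 22439 genes counted in 30958 single myeloid cells of the spinal cord. They were chosen by these same measured levels, CPM by library, cell type, time point and deposited cluster, which were already known, so the levels are given as a description, without tests. Tests were kept for sort and sex and for other genes of the lipoprotein pathway and of the locus.

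Apolipoproteins are the protein shell of lipoprotein particles, which carry cholesterol and other lipids between cells. Apoe is taken up by lipoprotein receptors on the cell surface, and in the central nervous system it is made by glia and loaded with lipid by the transporters Abca1 and Abcg1. Apoc1 is a small exchangeable apolipoprotein that hinders the uptake and lipolysis of such particles, Apoc2 is the cofactor of lipoprotein lipase, and Apoc4 is the least studied of the 4. Apoe is known as a gene of microglia and macrophages that have taken up myelin or dying cells.

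The 25 droplet libraries were made from myeloid cells sorted out of a 5 mm piece of spinal cord after laminectomy alone (Ctrl) or 1, 2, 3, 10 or 21 days after spinal cord injury (D1 to D21), with tissue of 1 to 3 mice in each. Libraries called mixed hold YFP+ cells of Cx3cr1CreERT2 mice. Libraries called resident (RFP+/YFP+) and infiltrating (RFP-/YFP+) come from Cx3cr1CreERT2:R26tdTomato mice, in which cells carrying Cre activity from the Cx3cr1 locus are marked red, so the sort and the strain cannot be told apart. There were 12 mixed, 5 resident and 7 infiltrating libraries, and 1 library at D3 whose title and sort disagree (D3_conflict 1) was kept out of all comparisons; ages are not given in the labels used here. The only 2 controls were 1 mixed library of female mice and 1 resident library of male mice.

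Each library had between 155 and 3800 cells and between 486649 and 33204422 UMIs, the unique molecule counts of this 3′ assay, with medians of 1577 to 11233 UMIs per cell. The deposited cell types were 13289 microglia, 12841 macrophages (a class that takes in monocytes), 2712 dendritic-like and 2116 neutrophil-like cells. Of the fixed markers, 9 of 9 for microglia stood out in the first class, 6 of 9 for macrophages and 4 of 8 for monocytes in the second, 6 of 8 for dendritic cells in the third and 7 of 7 for neutrophils in the fourth. A level is the UMIs of a gene summed over the cells of 1 type in 1 library, per 1000000 UMIs of those cells (CPM). Because 1 UMI stands for 1 captured 3′ end, levels were not divided by gene length. The library is the replicate, and 127 cell barcodes occurred in more than 1 library (254 cells). Nothing in the labels says that libraries of 1 group came from separate experiments, so p-values measure the spread between libraries.

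The 4 genes lie on the minus strand of GRCm38 chromosome 7 within 27.61 kb, and Apoe is the first of them in the direction of transcription. In GENCODE M21, Apoe (ENSMUSG00000002985.16) spans 19696109 to 19699188, Apoc1 (ENSMUSG00000040564.14) 19689481 to 19692660, Apoc4 (ENSMUSG00000074336.5) 19678083 to 19681479 and Apoc2 (ENSMUSG00000002992.17) 19671579 to 19677941. Gaps of 3448, 8001 and 141 bases separate them in that order. A read-through gene, Gm44805, covers Apoc4 and Apoc2, shares 96.6% of the last 500 exonic bases of Apoc2 and none of those of Apoc4, and had 0 counts in all cells. Apoc2 reads could therefore have been lost to overlap in the authors' counting, and its level is uncertain.

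The 250 bases before the start site are shown for the genes with an entry in the RefSeq promoter table (GRCm38.p6), because Apoe and Apoc4 differed in level while both were above controls from D3 on; Apoc2, which stayed near 0, is shown as their neighbour. They run 5′ to 3′ on the minus strand, and capitals mark the motifs found. The windows are chr7:19699189-19699438 for the most upstream of 3 Apoe starts, chr7:19681461-19681710 for Apoc4 and chr7:19677942-19678191 for Apoc2. The RefSeq start of Apoc4, 19681460, lies inside the GENCODE gene, which begins at 19681479, so the last bases of this window are within that gene model.
Apoe: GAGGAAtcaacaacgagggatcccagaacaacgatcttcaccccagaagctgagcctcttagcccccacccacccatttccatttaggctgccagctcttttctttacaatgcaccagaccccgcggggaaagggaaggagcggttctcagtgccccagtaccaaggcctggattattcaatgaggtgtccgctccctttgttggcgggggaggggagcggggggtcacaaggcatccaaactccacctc
Apoc4: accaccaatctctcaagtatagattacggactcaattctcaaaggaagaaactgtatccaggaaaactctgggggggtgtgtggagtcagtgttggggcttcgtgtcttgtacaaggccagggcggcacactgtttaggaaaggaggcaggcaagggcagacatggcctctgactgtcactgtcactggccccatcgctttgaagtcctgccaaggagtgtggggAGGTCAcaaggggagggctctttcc
Apoc2: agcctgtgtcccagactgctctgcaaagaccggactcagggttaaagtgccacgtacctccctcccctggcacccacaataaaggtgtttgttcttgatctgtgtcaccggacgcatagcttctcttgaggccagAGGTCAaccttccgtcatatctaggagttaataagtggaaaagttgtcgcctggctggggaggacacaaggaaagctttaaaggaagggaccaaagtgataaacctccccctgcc
Both strands of these 3 windows were searched for the nuclear receptor motif AGGTCA and the PU.1 core GAGGAA. The first occurred once in Apoc4, 25 bases before the RefSeq start, and once in Apoc2, at 115 bases, and it occurs in 14.0% of 32536 windows of this length. The PU.1 core occurred once in Apoe, at 250 bases, and in 23.4% of all windows.

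No match was found in these letters for the AP-1 motif TGANTCA (in 6.73% of all windows), the C/EBP motif TTGCNNAA (9.57%), the MAF motif TGCTGA (16.1%) or the TATA box TATAAA (12.3%), also on both strands.

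The CPM of Apoe in microglia was below its control level at D1, on both sides of it at D2 and far above it from D3 on. Its CPM was 1575 in Ctrl_mixed 1 and 1625 in Ctrl_resident 1, and 909, 917 and 1341 in the 3 D1 libraries, all mixed and all male. At D2 it was 781 in D2_mixed 1, 2955 in D2_resident 1 and 3301 in D2_mixed 2, the last a sum of only 23 cells. The D1 libraries lay below both controls in CPM, and the D2 libraries lay on both sides of them.

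The step came between D2 and D3. The 5 D3 libraries had 9898, 12603, 16764, 17341 and 24118 CPM, and the 3 D10 libraries had 50945 and 61033 (mixed) and 59571 (resident). D21_mixed 1 had 68188 CPM, and the few microglia of D10_infiltrating 2 and D21_infiltrating 1 (36 and 41 cells, outside the fit) had 42455 and 51560. Every D3 library was above every earlier one and every D10 library above every D3 one, and at D10 this single gene took 5.72% ± 0.545 (SD, n = 3) of the microglial UMIs.

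In the edgeR fit over 17 microglial sums, with time and sex as terms, Apoe differed by -0.06 (SE 0.44) on the log2 scale between D1 and controls, by 3.86 (SE 0.40) between D3 and D1 and by 5.69 (SE 0.54) between D10 and controls. These time contrasts chose the genes and carry no test. With median-of-ratios scaling in place of TMM the D1 value was -0.23, and in DESeq2 it was also -0.23. With mixed libraries alone it was -1.65, but there the only control is female and the D1 libraries are male. The sex term of that fit rests on D2_mixed 1 (female) against D2_mixed 2 (male, 23 microglia) alone.

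Levels were also compared inside single groups of libraries that share a code in the SLX column of the deposited cell table, taken here as sequencing pools. Pool 4 held D2_mixed 1 at 781 CPM and D2_mixed 2 at 3301 beside D3_mixed 3 at 12603. Pool 2 held Ctrl_mixed 1 at 1575 CPM beside the 2 mixed D10 libraries at 50945 and 61033. Pool 7 held Ctrl_resident 1 at 1625, D2_resident 1 at 2955 and D10_resident 1 at 59571. Pool 3 held the D1 libraries and D21_mixed 1, so in each of these 4 pools the later libraries were the high ones.

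Marker lists moved with time as well, and their part in these levels was not tested. The summed level of the 9 microglia markers in microglia was 26611 to 30015 CPM in controls, 4787 to 9100 at D1, 10995 to 14625 at D3 and 14366 to 16049 at D10. That of the 9 macrophage markers was 1028 to 1112, 2834 to 3102, 3728 to 4579 and 4683 to 5751. Of these 2 lists Gpnmb, a macrophage marker, was at 0 in the controls, and no other marker was at 0 in these groups. The 8 monocyte markers summed to 9.29 and 9.71 CPM in controls, 9.19 to 31.8 at D1, 47.7 to 66.6 at D2, 35.5 to 185 at D3 and 8.87 to 16.3 at D10, so they were highest at D2 and D3. In controls F10 was the marker of this list at 0. The 8 dendritic markers summed to 21.0 to 23.9 CPM in controls, 7.66 to 11.7 at D1, 3.97 to 15.2 at D3, 33.7 to 59.8 at D10 and 77.7 at D21, with Clec9a at 0 from D1 on. The 7 neutrophil markers were at 201 to 220 CPM in controls, 38.3 to 103 at D1, 37.6 to 78.0 at D3 and 103 to 155 at D10.

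Apoc1 was also far above its control level from D3 on, from a much lower start. It had 2.50 and 2.16 CPM in the controls, which is 14 and 4 UMIs, and 1.53, 5.41 and 4.64 CPM at D1. At D2 it had 21.9 CPM in D2_resident 1, 13.5 in D2_mixed 1 and no UMI in D2_mixed 2, where a count of 0 allows up to 22.2 CPM. Control and D1 libraries overlapped, and the 2 well-filled D2 libraries were above both.

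The 5 D3 libraries had 69.3, 89.3, 89.5, 101 and 103 CPM of Apoc1. The D10 libraries had 498 (resident), 778 and 821 (mixed), and D21_mixed 1 had 663. D3 lay above all earlier groups and D10 above D3, D21 was within the D10 range, and the resident D10 library was the low one of its group. The fitted log2 differences were 1.14 (SE 0.58) at D1 against controls, 4.47 (SE 0.41) at D3 against D1 and 8.60 (SE 0.59) at D10 against controls.

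Apoc4 was almost absent before D2 and present in every library from D3 on. The controls had 1 UMI each and the D1 libraries 1, 0 and 3. At D2 it stood at 6.93 CPM in D2_resident 1, 5.01 in D2_mixed 1 and 0 in D2_mixed 2. D3 libraries ranged from 14.4 to 33.3 CPM, D10 libraries had 161, 203 and 247, and D21_mixed 1 had 308.

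With 2 UMIs of Apoc4 in both controls together against 2239 at D10, the ratio of summed CPM was 729.6, with a 95% counting interval of 201.8 to 6028.6 that covers counting error only. The same ratio was 306.8 (194.0 to 518.0) for Apoc1 and 35.5 (34.9 to 36.2) for Apoe. The interval of Apoc4 is wide because of its 2 control UMIs, and it overlaps that of Apoc1.

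Apoc2 stayed at the edge of detection. All 30958 cells held 182 UMIs of it, against 3191062 of Apoe, 15752 of Apoc1 and 5674 of Apoc4. In microglia it was at 0 in both controls and at no more than 2.22 CPM in any library of the fit, and in macrophages of the fit its highest level was 4.87 CPM, from 2 UMIs in D1_mixed 3. The filter on low counts removed Apoc2 from both fits and kept the other 3 genes.

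**Figure D1:**
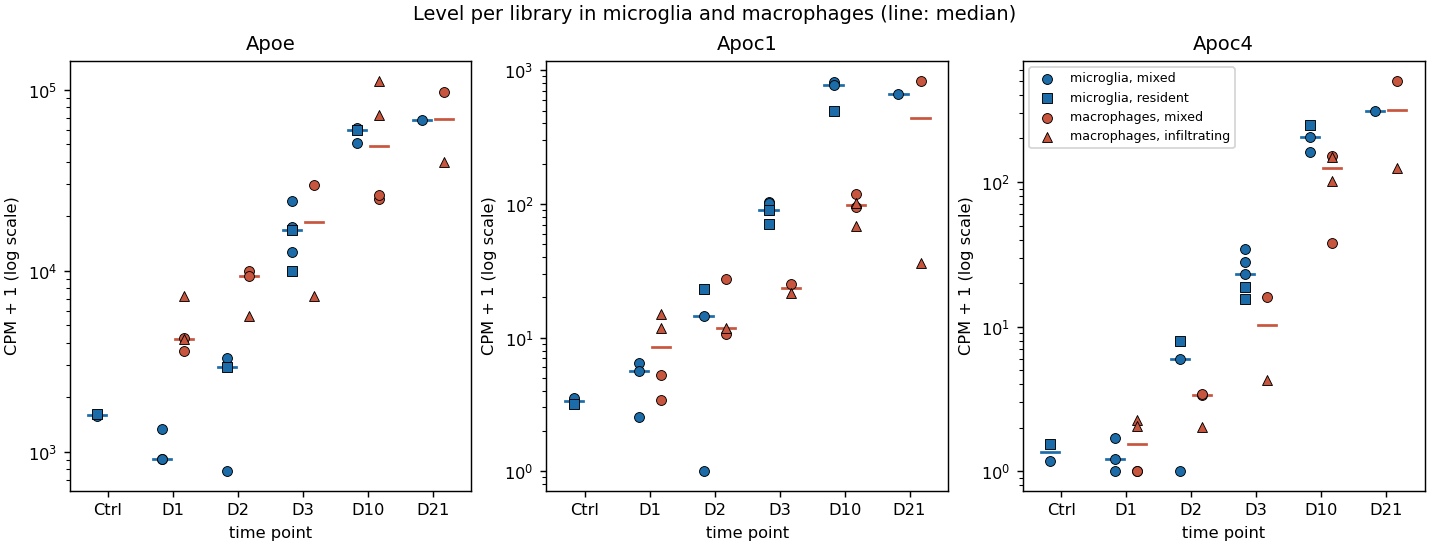
CPM + 1 of Apoe, Apoc1 and Apoc4 (log axis) by time point. Each point is the summed cells of 1 type in 1 library of the fits, blue for microglia and red for macrophages, with the marker shape giving the sort and the line the median. Microglial Apoe goes from 1575 and 1625 CPM in controls to 50945 to 61033 at D10, and D10 macrophages spread from 25017 to 111997.

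At D1 to D3 macrophages held more Apoe than the microglia of the same library in 8 of 8 libraries. No control library had macrophages. In the infiltrating and mixed libraries Apoe was at 3620 to 7221 CPM at D1 (4 libraries), 5621 to 9996 at D2 (3 libraries), and 7215 and 29840 at D3. At D10 it was at 71968 and 111997 in the infiltrating libraries and at 25017 and 26085 in the mixed ones, and at D21 at 39722 (infiltrating) and 97368 (mixed).

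The D10 group lay above the D1 and D2 groups but overlapped D3, through D3_mixed 3. Macrophages of the resident sort, which were outside the fit, had 8975 CPM at D2, 16452 and 19454 at D3 and 127801 at D10. The D10 to D1 difference in the fit of 15 macrophage sums was 3.52 (SE 0.67) for Apoe, 3.39 (SE 0.70) for Apoc1 and 6.73 (SE 0.88) for Apoc4, the last against 36 UMIs at D1.

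Macrophage levels differed between deposited clusters. At D10 and D21, macrophages of clusters 3 and 9 had 98535 to 131110 CPM of Apoe in all 7 libraries with such cells, and all but 1 of their 933 cells had an Apoe UMI. Cells of clusters 10 and 13 had 189 to 837 CPM in 5 of those libraries, D10_resident 1 had 1 such cell, without an Apoe UMI, and D21_mixed 1 had none. Clusters were made from these counts, so the contrast is a description.

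The share of the low clusters differed between libraries. In D10_mixed 1, clusters 10 and 13 made up 18 of 53 macrophages and 73.9% of their UMIs, and in D10_mixed 2 they made up 22 of 68 and 70.9%. In D10_infiltrating 1 they gave 7.82% of the UMIs, in D10_infiltrating 2 27.1% (15 of 116 cells) and in D21_infiltrating 1 56.3% (17 of 89). In D10_resident 1 they were 1 cell of 134 and in D21_mixed 1 there were none. Within clusters 3 and 9 the mixed libraries had 104233 and 105762 CPM, against 126233 and 107438 in the infiltrating ones. The nearest mixed and infiltrating libraries were thus 26085 and 71968 CPM over all macrophages and 105762 and 107438 within clusters 3 and 9. Whether the clusters account for the difference between sorts was not tested.

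In the 5 libraries with more than 1 such cell, clusters 10 and 13 carried more monocyte markers, 4567 to 7518 CPM summed over 8 genes against 11.1 to 146 in clusters 3 and 9. They carried fewer macrophage markers, 8053 to 23341 CPM against 24250 to 59316. Their microglia markers summed to 39.1 to 171 CPM, against 2050 to 5620 in clusters 3 and 9. The single cell of D10_resident 1 had none of the microglia or macrophage markers and 722 CPM of monocyte ones. It also had 802 CPM of dendritic and 401 CPM of oligodendrocyte markers.

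Cluster shares also differed between the 2 D3 libraries of the fit. Cluster 9 held 88.6% of the macrophages of D3_mixed 3 and 3.76% of those of D3_infiltrating 1. Inside cluster 9 the 2 libraries stood at 31659 and 38729 CPM. Across time, in libraries with at least 20 of its cells, cluster 9 had 9277 CPM at D1, 25331 at D2 and 30410 to 38729 at D3. It had 103691 to 132244 CPM at D10 and 98466 at D21. Up to D10 the later libraries were thus higher within 1 cluster as well, and the D21 library was below every D10 one.

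Apoc1 in macrophages was low for longer. It had 2.43 to 14.0 CPM at D1, 9.71 to 26.3 at D2, and 20.5 and 24.2 at D3. At D10 the 4 libraries of the fit had 67.8, 94.3, 100 and 117 CPM, all above every earlier one. At D21 the infiltrating library had 35.3 CPM from 24 UMIs and the mixed one 836 from 280. D10_resident 1, outside the fit, had 336.

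Apoc4 in macrophages was at 0 to 1.26 CPM at D1 and 1.02 to 2.43 at D2. It had 3.26 and 15.1 CPM at D3, 36.6, 101, 149 and 151 at D10, and 124 and 502 at D21. From D3 on, each time point lay wholly above the one before except that D10 and D21 overlapped.

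The balance of the 3 genes differed between the cell types. In microglia there were 4.27 to 8.03 UMIs of Apoc1 per 1000 of Apoe at D3 and 8.36 to 16.1 at D10. In macrophages there were 0.811 and 2.83 at D3 and 0.894 to 4.68 at D10, so the ranges of the 2 cell types in the libraries of the fits did not overlap at these times. At D1 they overlapped, at 1.68 to 5.90 in microglia and 0.672 to 3.34 in macrophages. At D21 microglia were at 9.73 and macrophages at 0.889 (infiltrating) and 8.59 (mixed), the latter within the D10 range of microglia. Apoc4 was at 2.64 to 4.14 per 1000 in D10 microglia and 1.33 to 6.05 in D10 macrophages, which did overlap.

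Inside single libraries, whose cells share mice and capture but not depth (medians of 3062 UMIs in all microglia and 9144 in all macrophages), Apoe was higher in macrophages than in microglia in 11 of 14 libraries. The log2 ratio was 0.21 to 3.68 in all 8 libraries of D1 to D3. It was 0.76 and 1.10 in the infiltrating and resident D10 libraries and -1.03 and -1.23 in the mixed ones, and -0.38 and 0.51 at D21. The macrophages of clusters 3 and 9 in the 2 mixed D10 libraries, at 104233 and 105762 CPM, were above the microglia of those libraries at 50945 and 61033.

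Apoc1 went the other way. It was higher in microglia in 9 of the 11 libraries with enough UMIs, by up to 3.04 on the log2 scale in D10_mixed 2, and higher in macrophages in D2_mixed 1 (0.96) and D21_mixed 1 (0.33). Apoc4 was higher in microglia in 7 of 9 libraries, and higher in macrophages in D10_infiltrating 2 (0.50) and D21_mixed 1 (0.70). Most macrophage UMIs of D10_mixed 1 and D10_mixed 2 came from clusters 10 and 13. Over all libraries those clusters held 8 and 1 Apoc4 UMIs. The macrophages of D10_mixed 1 and D10_mixed 2 held 93 and 33, so clusters 10 and 13 lower their Apoc4 levels in this comparison. Ratios for macrophages of clusters 3 and 9 alone are not given for Apoc1 and Apoc4.

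**Figure D2:**
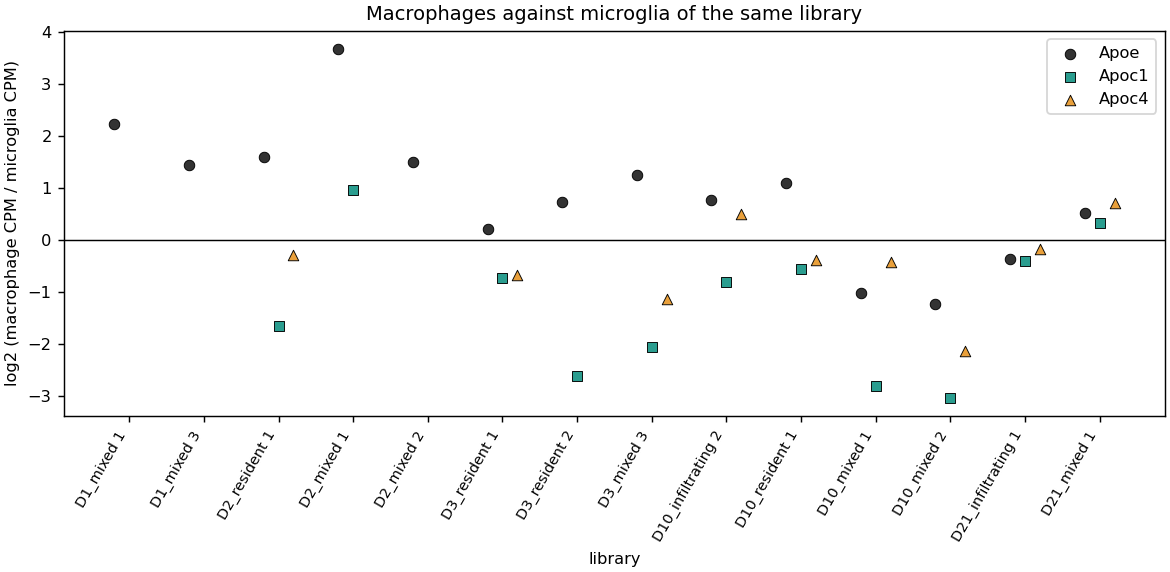
Log2 ratio of macrophage CPM to microglia CPM within each library that held at least 20 cells of both, for Apoe (circles), Apoc1 (squares) and Apoc4 (triangles); points above 0 are higher in macrophages. Apoe lies above 0 in 11 of 14 libraries, Apoc1 below 0 in 9 of 11.

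The 2 other cell types are given for comparison. Dendritic-like cells had 153 to 3111 CPM of Apoe from D1 to D3 and 186 at D21, and 17883 and 8817 in D10_infiltrating 1 and 2. Few cells carried the last value, since 9.68% of those 31 cells had an Apoe UMI, against 55.1% of 49 in D10_infiltrating 1, where the median cell had 0.201% of its UMIs from Apoe. Neutrophil-like cells had 14.6 to 384 CPM. In dendritic-like cells of D3, Apoc4 was at 0.517 CPM in D3_infiltrating 1 (8 UMIs) and 16.8 in D3_mixed 3 (6 UMIs of 87 cells). The 3019 macrophages of D3_mixed 3 held 334 Apoc4 UMIs. The overlap with D3 microglia and macrophages thus rests on 6 UMIs. Apoc4 had no UMI in the dendritic-like cells of D10, although Apoc1 had some.

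The share of cells with an Apoe UMI was compared after thinning each cell to 1000 UMIs. Among microglia it was 19.1% and 25.1% in controls, 20.8% to 31.1% at D1, 85.0% to 90.2% at D3 and 81.1% to 99.3% at D10, and 99.9% at D21. Without thinning the controls were at 22.2% and 31.4% and D3 at 86.8% to 92.6%. In neutrophil-like cells, a type that should lack the gene, 0.897% to 9.57% of thinned cells at D1 and D2 had a UMI, with median depths of 1918 to 2871 UMIs against 2492 to 3963 in the microglia of those days.

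Macrophages were mostly positive from D1 on, with 64.8% to 82.4% of thinned cells at D1 and 69.2% to 92.1% at D10. For Apoc1, 0.210% and 0.218% of thinned control microglia had a UMI, against 5.49% to 9.20% at D3 and 17.5% to 27.2% at D10. The control shares of Apoc1 are at the level of single molecules and were not read as expression.

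Few control microglia held most of the Apoe. The top 5% of cells by Apoe UMIs held 60.7% and 64.1% of them in the controls, 54.5% to 63.0% at D1 and 24.6% to 31.6% at D3. D10 was within that last range and D21 just below it. At D10 the median microglial cell had 3.85% to 4.68% of its UMIs from Apoe, and the highest cell, at D21, had 35.6%.

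Among the 1887 control cells, 93 had more than 1% of their UMIs from Apoe, and these held 60.7% of all control Apoe. The limit of 1% was set after seeing the data and cuts a continuous range, with 86 cells between 0.5% and 1% and 61 between 1% and 2%. Their depth was like that of the rest, with median UMIs of 3692 and 3805.5. They were found in both controls, at 5.04% and 4.59% of cells.

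Those cells differed in other genes, given here as levels because the split uses Apoe. Lyz2, lysozyme, was at 1012 CPM against 286 in the rest, and Cd63, a late endosomal tetraspanin, at 1218 against 454. P2ry12, the purinergic receptor of resting microglia, was at 1843 against 3112, and Tmem119, another resting marker, at 1123 against 1558. The mannose receptor Mrc1, which marks border macrophages, had 0 UMIs in them and Ms4a7 had 1, and 4 of the 9 macrophage markers were at 0. The 9 macrophage markers summed to 2502 CPM against 975, and the 7 astrocyte markers to 192 against 140. Lists for monocytes, endothelial cells and oligodendrocytes were lower, at 5.56, 22.2 and 183 CPM against 9.59, 24.7 and 205. Of the neighbours, Apoc1 had 11 UMIs there, 30.6 CPM against 0.987 in the rest, while Apoc4 had 0. Of the 11, 10 were in Ctrl_mixed 1 (37.3 CPM against 0.751) and 1 in Ctrl_resident 1 (10.9 against 1.70).

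At the other end, D10 microglia without Apoe were mostly in 1 library. D10_resident 1 had 117 of 641 microglia with no Apoe UMI, against 17 of 1151 and 6 of 918 in the mixed libraries and none in D21_mixed 1. Of the 117, 46 lay in cluster 2, where they were 73.0% of the cells, and 28 and 24 in clusters 4 and 3. Their median depth was 2414 UMIs against 2993.5 in the other microglia of that library. Median mitochondrial counts in D10_resident 1 were 0.0741% and 0.0725% in the 2 sets, against 0.617% and 0.875% in the Apoe-positive microglia of the mixed libraries and 0.114% and 0.129% in their 17 and 6 Apoe-negative ones; their part in this difference was not tested.

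**Figure D3:**
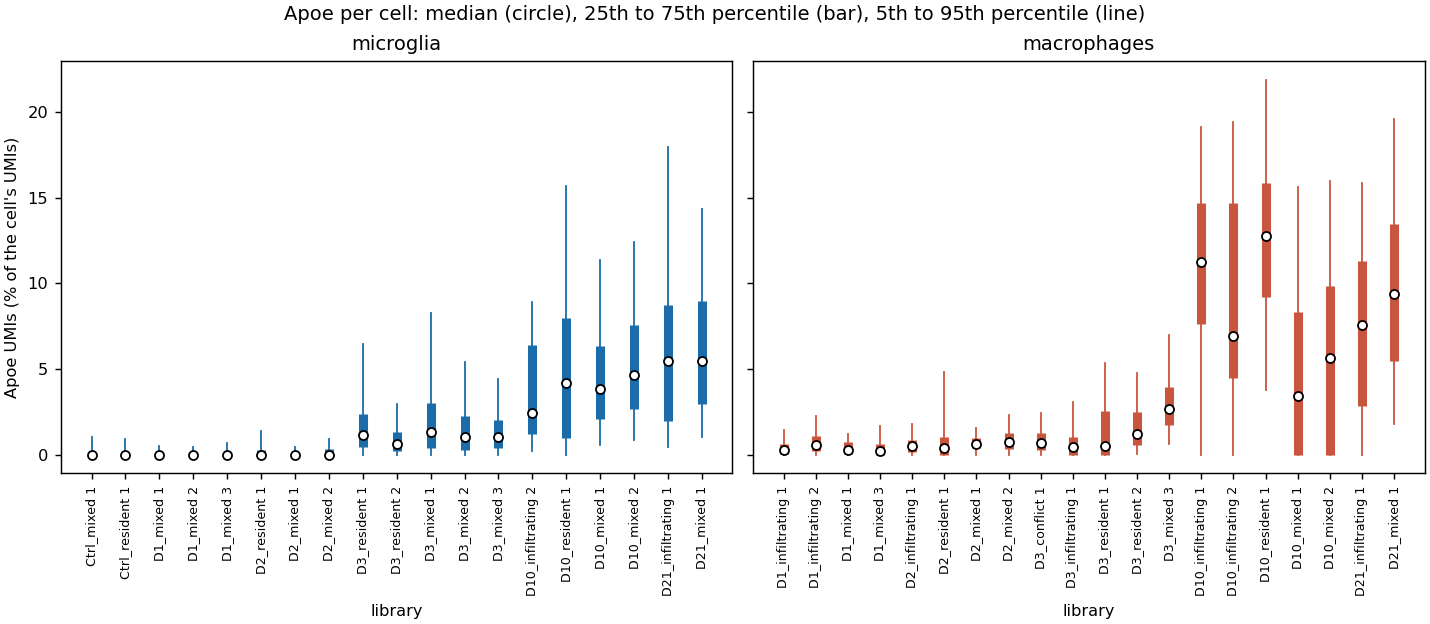
Percent of a cell's UMIs that are Apoe, per library, for microglia (left) and macrophages (right): circle, median; thick bar, 25th to 75th percentile; thin line, 5th to 95th. The medians of control, D1 and D2 microglia are 0, those of D10 microglia of the fit 3.85% to 4.68%.

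Across the 16 deposited clusters, pooled Apoe was highest in cluster 3 (55523 CPM), cluster 4 (51148) and cluster 9 (47414), and lowest in the neutrophil-like cluster 16 (370). These clusters differ in their time points, with 2840 of 3554 cells of cluster 9 at D3 and 891 of 1377 cells of cluster 4 at D10, so the order is not one at like times. At D10, in libraries with at least 20 of their cells, Apoe was at 103691 to 132244 CPM in cluster 9, 52640 to 131476 in cluster 3 and 59480 to 66220 in cluster 4. The median over libraries put cluster 4 first, at 62033, followed by cluster 3 at 44143 and cluster 9 at 38729. Cluster 4 is microglial, 90.5% of cluster 3 are microglia and cluster 9 holds macrophages. In D10_infiltrating 1, which gives the 131476 CPM, 60 of the 63 cells of cluster 3 were macrophages, and in the mixed and resident D10 libraries cluster 3 was at 52640 to 71101 CPM. Pooled over times, Apoc1 was highest in cluster 4 (580 CPM) and cluster 3 (542), and Apoc4 in cluster 3 (214) and cluster 4 (155). By the median over libraries Apoc1 was at 638 CPM in cluster 4 and 126 in cluster 3, and the order turned for Apoc4, with 168 in cluster 4 and 58.1 in cluster 3. Cluster 2, of which 960 of 1924 cells are from D1, had 169 CPM of pooled Apoc1 but 1192 in D10_mixed 2, above the highest library of cluster 3 (903) and of cluster 4 (861).

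Within a single cluster, levels also differed by time. In the microglial cluster 5, Apoe was at 607 to 1775 CPM at D1 and D2, 5160 to 13216 at D3, 33605 and 38453 at D10 and 40539 at D21, with no overlap from D3 on. In cluster 2, D10_resident 1 had 4423 CPM against 23750 to 25115 in the other 3 D10 libraries. Cluster 1 was made up of all 1887 control cells and of no others, so no cluster links controls with injured cords.

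**Figure D4:**
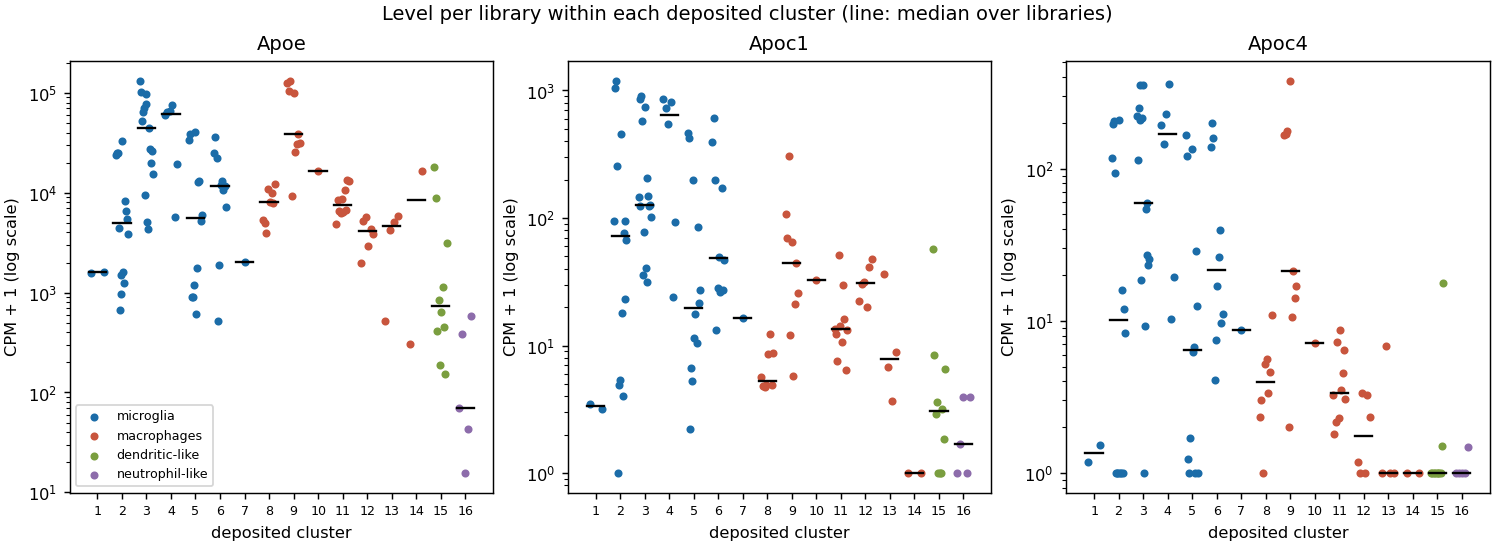
CPM + 1 (log axis) of Apoe, Apoc1 and Apoc4 in the 16 deposited clusters. Each point is 1 library with at least 20 cells of the cluster, the colour gives the main cell type and the line the median over libraries. Apoe in cluster 5 runs from 607 to 40539 CPM across libraries.

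Over the 17 microglial sums, the genes whose log2 CPM was most like that of Apoe by Pearson correlation, out of 10800, were Lyz2 (0.96), the lysosomal galactosidase Glb1 (0.95), Apoc4 (0.94), the metalloproteinase inhibitor Timp2 (0.94) and Npc2, a lysosomal cholesterol carrier (0.93). Those most like Apoc1 were Apoc4 (0.98), Cd200r4, an activating receptor (0.95), the phospholipid transfer protein Pltp (0.94), Actr3b (0.93) and Pianp (0.93), and Apoe was 10th at 0.92. The sums share libraries and time groups, so these values are a description of those sums.

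Apoc1 and Apoc4 were also compared within single cells, as a description without a test. Of D10_resident 1 microglia thinned to 1000 UMIs, 25% of those with an Apoc1 UMI also had one of Apoc4, against 13.8% of those without. The shares were 22.0% and 12.1% in D10_mixed 1, 18.3% and 9.22% in D10_mixed 2 and 24.3% and 15.6% in D21_mixed 1. The cells with an Apoc1 UMI also had more Apoe, with median counts of 55.5 against 38, 45 against 35, 59 against 43 and 68 against 49 UMIs in the same order.

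Sort and sex were tested for the 3 genes that passed the filter. In microglia, resident against mixed libraries differed by 0.11 (SE 0.28) for Apoe, -0.09 (SE 0.29) for Apoc1 and -0.01 (SE 0.36) for Apoc4, with edgeR adjusted p = 1 for each and unadjusted p of 0.697, 0.75 and 0.98. That fit called 0.148% of 10801 genes, 0.139% higher and 0.00926% lower. Female against male libraries differed by -0.33 (SE 0.29), -0.31 (SE 0.30) and 0.01 (SE 0.36), again with edgeR adjusted p = 1. By sex no gene passed in edgeR (0%) or DESeq2, and 101 were under 0.05 before adjustment in edgeR. A p that misses the threshold does not show that the groups were alike.

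In macrophages, the infiltrating minus mixed difference was -1.14 (SE 0.44) for Apoc1, with an edgeR adjusted p = 0.387 (0.0208 before adjustment). It was -1.13 (SE 0.49) for Apoc4, with an edgeR adjusted p = 0.442 (0.0385 before adjustment). Leaving out 1 library gave -1.39 to -0.38 for Apoc1, nearest to 0 without D21_mixed 1 (-0.38) or D21_infiltrating 1 (-0.40), and -1.53 to -0.65 for Apoc4. Neither passed, in a fit that called 0.0117% of 8577 genes. Apoe differed by -0.10 (SE 0.54, edgeR adjusted p = 0.958). With sequencing pool as a further term these values were -1.48 for Apoc1, -0.10 for Apoc4 and 0.63 for Apoe. With D2_infiltrating 1 taken as male, as the deposited cell table codes it and against its labels, they were -0.76, -0.97 and 0.0468, an alternative chosen after seeing the data.

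The other genes of the pathway came from lists of 55 genes, of which 39 could be tested in microglia and 36 in macrophages. At D1 against controls, 8 of 39 rose (20.5%) and 9 fell (23.1%) by the edgeR test, in a contrast that called 46.6% of all genes, 23.9% higher and 22.7% lower. At D3 against D1, 4 rose (10.3%) and 2 fell (5.13%), against 18.8% of all genes, 8.62% higher and 10.2% lower. The 4 became 8 without D3_mixed 1, 13 without D3_mixed 2 and 11 in DESeq2. Of all genes, 1004 of 11067, 1194 of 11086 and 1357 of 10793 were higher in those fits, against 931 of 10801 in the main one. At D10 against controls, 8 rose (20.5%) and none fell, against 10.3% of all genes, 8.06% higher and 2.22% lower; 2 were lower at an unadjusted p under 0.05 and DESeq2 called 1 lower. The D1 shares are close to the background. Leaving out either control leaves only 1, and fewer pathway genes were then called higher at D1 and at D10. Fewer of all genes were called higher in those fits as well.

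Efflux and lipidation genes made up most of the D10 calls, with 6 of 9 higher (66.7%, against 8.06% of all genes) and a median log2 change of 1.64 against -0.01 over all genes. Pltp, which moves phospholipids onto lipoproteins, rose by 5.39 (SE 0.66, edgeR adjusted p = 5.76e-05). The cholesterol exporters Abcg1 and Abca1 rose by 2.48 (SE 0.45, edgeR adjusted p = 0.00161) and 2.22 (SE 0.56, edgeR adjusted p = 0.0158). Npc2 rose by 1.64 (SE 0.25, edgeR adjusted p = 0.0004), Nceh1, a cholesteryl ester hydrolase, by 2.16 (edgeR adjusted p = 0.00661), and Soat1, which esterifies cholesterol, by 1.20 (edgeR adjusted p = 0.0467).

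These D10 calls rest on 2 controls. Without Ctrl_mixed 1 the edgeR adjusted p was 0.113 for Abca1 and 0.0755 for Nceh1, and without Ctrl_resident 1 it was 0.187, 0.115 and, for Abcg1, 0.0519. Soat1 lost its call in 18 of 27 alternatives, each of those 2 among them. Pltp and Npc2 lost theirs only with mixed libraries alone.

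Earlier, the same list was split. At D1, 2 of 9 rose and 2 fell (22.2% each, against 23.9% and 22.7% of all genes). Abcg1 and Nceh1 rose by 1.54 and 1.46, and the lysosomal cholesterol exporter Npc1 and the transporter Abca7 fell by 1.46 and 2.21. At D3 against D1, 3 of 9 rose (33.3%, against 8.62% of all genes), Pltp by 2.68 (edgeR adjusted p = 0.00376), Abca7 by 2.48 (edgeR adjusted p = 0.00162) and the lysosomal acid lipase Lipa by 1.08 (edgeR adjusted p = 0.00732). Abca1 was at 0.55 and 0.76 in these contrasts and did not pass. Abcg1 and Nceh1 at D1 lost their calls without Ctrl_resident 1 (edgeR adjusted p = 0.157 and 0.173).

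Of the receptors and binding partners, 3 of 8 fell (37.5%, against 22.7% of all genes) and 1 rose (12.5%, against 23.9%) at D1, the latter the chaperone Lrpap1 by 0.94 (edgeR adjusted p = 0.0201), a call lost without either control, D1_mixed 1 or D1_mixed 2 (edgeR adjusted p of 0.0582 to 0.102). The sorting receptor Sorl1 fell by 2.58 on the log2 scale (SE 0.65, edgeR adjusted p = 0.004). With mixed libraries alone, which leaves 1 control, of female mice against male D1 mice, its value changed sign, to 5.63. Trem2, a microglial receptor that binds Apoe, fell by 1.00 (edgeR adjusted p = 0.0108). Trem2 then rose by 1.14 at D3 against D1 (edgeR adjusted p = 0.00345), and at D10 against controls it was at 0.89 (edgeR adjusted p = 0.064).

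Lrpap1 was also the 1 receptor-list gene called higher at D10, by 1.36 (edgeR adjusted p = 0.00687), and its call was lost without either control. Lrp1, a large endocytic receptor of Apoe, passed in none of the 3 microglial contrasts, with values of -0.39, 1.19 and 0.64. The Trem2 call at D1 was lost without Ctrl_mixed 1 (edgeR adjusted p = 0.0935).

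Lipoprotein lipase, the enzyme Apoc2 activates, changed most in its list, of which 2 of 5 rose (40%, against 23.9% of all genes) and 1 fell (20%, against 22.7%) at D1. Lpl rose by 4.71 at D1 (SE 0.34, edgeR adjusted p = 1.77e-07), fell by 1.76 between D1 and D3 (SE 0.21, edgeR adjusted p = 6.73e-05), and at D10 was 4.46 above controls (SE 0.33, edgeR adjusted p = 2.09e-07). Each of these 3 calls held in all alternatives. Its mean level in microglia was 66.2 CPM in controls, 1038 at D1, 341 at D3 and 965 at D10. Angptl4, an inhibitor of the lipase, rose by 3.91 at D1 (edgeR adjusted p = 0.00231). Sel1l, an adaptor of protein degradation in the endoplasmic reticulum that the lipase needs to mature, fell by 1.301 at D1 (edgeR adjusted p = 0.00774; 0.0711 without Ctrl_resident 1). At D3 and D10 Lpl was the only gene of the 5 that passed.

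Among 12 regulators, 1 rose (8.33%, against 23.9% of all genes) and 3 fell (25%, against 22.7%) at D1. At D3 against D1 1 fell (8.33%, against 10.2%), Cebpb by 0.99 (edgeR adjusted p = 0.0472), a call lost in 17 of 26 alternatives, and none passed at D10. Nr1h3, the oxysterol-sensing liver X receptor alpha, was at 0.548 to 2.59 mean CPM in microglia at all times before D21 and passed in no microglial contrast. Those that fell at D1 were Ppard by 1.70, Mylip, a ubiquitin ligase of lipoprotein receptors, by 1.51 and Rxrb by 0.90. The Rxrb call was lost without Ctrl_mixed 1, Ctrl_resident 1, D1_mixed 2 or D1_mixed 3 (edgeR adjusted p of 0.058 to 0.149), and with mixed libraries alone its value changed sign, to 0.15. Pparg rose by 4.37 at D1 (edgeR adjusted p = 0.0287) from a mean of 0.0893 CPM, and lost its call in 7 alternatives.

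Of the 5 other apolipoprotein genes tested, 2 rose at D1 (40%, against 23.9% of all genes), Apoo by 2.56 and Apool by 1.02. Both act in the mitochondrial inner membrane. The Apoo call was lost in 1 of 26 alternatives and the Apool call in 3. None passed at D3 or D10.

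In macrophages at D10 against D1, 4 of 36 pathway genes fell (11.1%) and none rose, in a contrast that called 14.4% of all genes, 7.31% higher and 7.04% lower; 3 were higher at an unadjusted p under 0.05 and DESeq2 called 2 higher. The receptor Lrp8 fell by 2.41 (edgeR adjusted p = 0.00506), and the regulators Cebpb by 2.10 (0.0228) and Nr1h3 by 2.47 (0.0112), with edgeR adjusted p-values in brackets. Abca1, Abcg1, Lrp1, Trem2 and Lpl were at 0.25, -0.05, -1.01, 2.09 and -2.05 and did not pass. Without D1_infiltrating 1 the Nr1h3 call was lost (edgeR adjusted p = 0.0588), and without D1_infiltrating 2 those of Nr1h3 and Cebpb were (0.0568 and 0.092).

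The genes on either side of the 4 are given for comparison. Of 12 neighbours, 8 were tested in microglia. At D1, 3 rose by the edgeR test (37.5%, against 23.9% of all genes) and 0 fell, with 2 lower at an unadjusted p under 0.05 and 2 called lower by DESeq2. Tomm40, the mitochondrial import channel whose start lies 16.25 kb upstream of Apoe's, rose by 2.39 (SE 0.31, edgeR adjusted p = 2.16e-05), Bcl3 by 1.60 and Gemin7 by 0.91. Without Ctrl_mixed 1 the calls of Bcl3 and Gemin7 were lost (edgeR adjusted p = 0.0682 and 0.112).

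At D3 against D1, 2 neighbours fell (25%, against 10.2% of all genes) and 0 rose, also at an unadjusted p under 0.05. Tomm40 fell by 1.64 (SE 0.22, edgeR adjusted p = 0.000141) and Bcl3 by 1.18 (edgeR adjusted p = 0.0291) in the same contrast in which Apoe, Apoc1 and Apoc4 were higher by 3.86 to 5.86. At D10 against controls no neighbour passed in edgeR or at an unadjusted p under 0.05, and their changes ran from -0.48 to 0.73. The D3 call of Bcl3 was lost in 5 of 26 alternatives, among them without D1_mixed 2, D1_mixed 3 or D3_resident 2 (edgeR adjusted p of 0.0725 to 0.123). In macrophages 0 of 7 passed in edgeR, with 1 lower at an unadjusted p under 0.05. The difference between the 3 apolipoprotein genes and their neighbours was not tested.

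**Figure D5:**
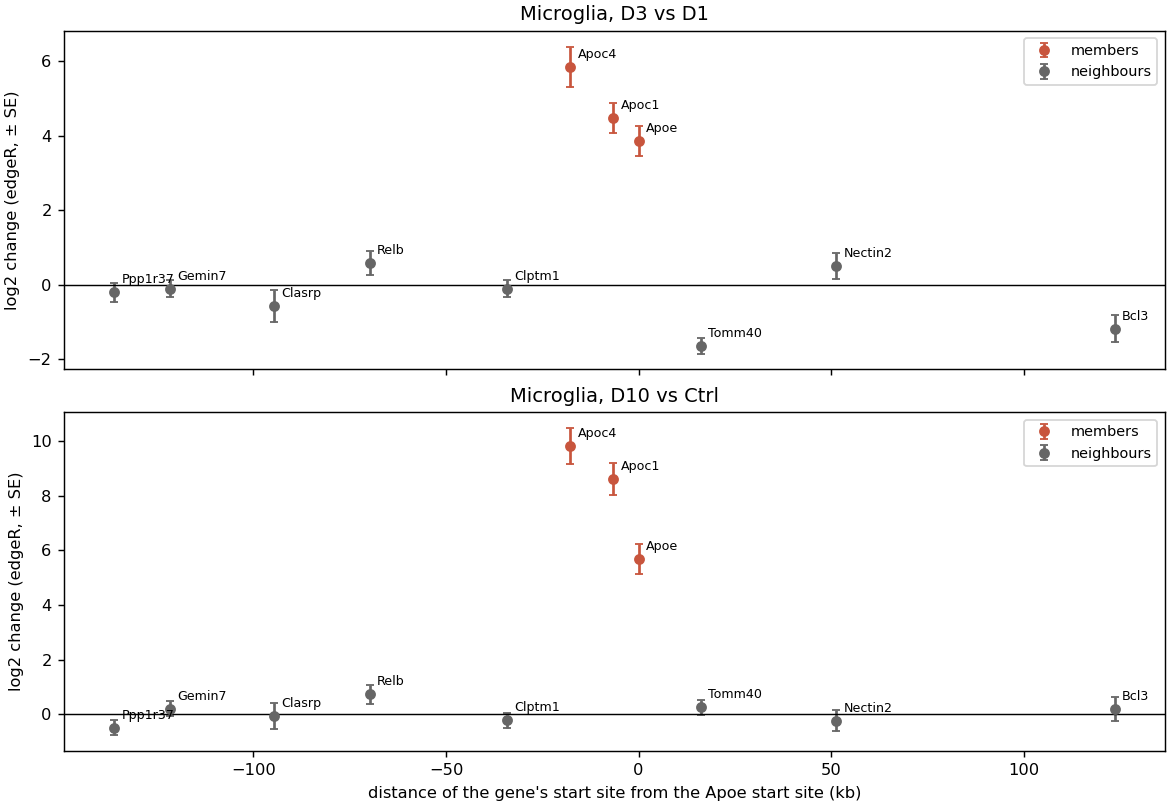
Log2 change (edgeR, bars ± SE) of the genes of the locus in microglia against the distance of each start site from that of Apoe, D3 against D1 above and D10 against controls below. Apoe, Apoc1 and Apoc4 (red) lie at 3.86 to 5.86 and 5.69 to 9.82, and the 8 neighbours (grey) at -1.64 to 0.58 and -0.48 to 0.73.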

How the data were processed

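The deposited raw count matrices hold UMI counts per gene and cell, and the deposited cell table gives each cell's library, cell type, cluster and SLX code (taken as sequencing pool), and its mitochondrial percent as the authors computed it. Reads were processed with Cell Ranger 3.1.0 on GRCm38/mm10, per the submitters' processing notes. The counting of overlapping genes and the treatment of doublets are not given in the sources used here, and no doublet caller was run.

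Counts were summed per library and deposited cell type (at least 20 cells). Sums of microglia from mixed and resident libraries (17) and of macrophages from mixed and infiltrating libraries (15) were tested with edgeR 4.0.16 (R 4.3.3; quasi-likelihood, TMM, low-count filter, time and sex as terms; the sort term was added for the sort test), with Benjamini-Hochberg adjustment over all genes at 0.05. SE is the log2 change over the square root of F. DESeq2 1.42.0, other scaling, no filter, at least 50 cells, a sort or pool term, mixed libraries alone and leaving out each library were alternatives. D2_infiltrating 1 is female per its labels and coded male in the deposited cell table; the labels were used, and the other code was an alternative chosen after seeing the data. The scripts were tested on simulated data. The genes, gene lists and markers were chosen with earlier results of these data known. Genes named are the 4 members, up to 3 per list and direction with the largest change past the threshold, and Lrp1, Trem2, Lpl, Abca1, Abcg1 and Nr1h3 throughout (some list genes are counted but not reported here); Nceh1, Soat1 and Npc2 at D10 and the genes named for control cells were chosen after their values were seen. Intervals (95%) and floors (3 counts) cover counting error only.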

Additional observations from a re-analysis of the deposited data

Results flagged for a closer look

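D3_conflict 1, whose title names infiltrating cells and whose sort is RFP+/YFP+, entered no comparison, and it carried signal from the cluster. Apoe was at 9228 CPM in its macrophages, 448 in its dendritic-like and 585 in its neutrophil-like cells. Apoc1 was at 27.5, 2.18 and 2.96 CPM in the same order. Apoc2 was at 0.860 CPM in macrophages and 0.838 in dendritic-like cells, and Apoc4 at 3.27 in macrophages. The controls held microglia only, so no control level of these cell types exists. No library stood apart from its group by CPM in 12 checks, which took each of the 4 genes in each group of 4 or more libraries. Those groups were D3 microglia and D1 and D10 macrophages, so the other groups were not checked.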

How the results depend on the processing

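Of the values that answer a comparison, 342 kept their direction and size under other settings, 49 moved and 12 changed sign; with 1 library left out these counts were 653, 54 and 22. With mixed libraries alone there was 1 control, and sex rested on D2_mixed 1 (female) against D2_mixed 2 (male, 23 microglia). Apoe, Apoc1 and Apoc4 were then at -1.65, 9.58 and 8.15 for D1 against controls. For D10 against controls they were at 3.89, 17.10 and 16.97, and in macrophages Apoc1 and Apoc4 were at 5.21 and 11.28. Apoc1 by sex was 8.27, and Sorl1 and Rxrb at D1 were 5.63 and 0.15. Calls against controls there rest on 1 control and are not given. At D3 against D1, 1 pathway gene and 1 neighbour were lower, in a contrast that called 1190 of 11154 genes, 514 of them higher. In macrophages 2 pathway genes were higher, against 666 of 7473 genes.

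DESeq2 gave 11 pathway genes higher and 1 lower at D3, 1 lower at D10, 2 higher in macrophages and 2 neighbours lower at D1. Of all genes it called 1357 higher and 1177 lower at D3, against 931 and 1099 in the main fit. It called 489 lower at D10 (main 240), 1026 higher in macrophages (main 627) and 2975 lower at D1 (main 2457). Without the filter the list genes called were 7 higher at D3 (1083 of 15630 genes), 1 lower at D10, 1 higher in macrophages (624 of 16026) and 2 neighbours lower at D1. Median-of-ratios scaling gave 1 pathway gene lower at D3 (919 of all genes), 1 lower at D10 (326), 1 higher in macrophages (673) and 2 neighbours lower at D1 (2861). It put the median log2 change of all genes at -0.18 at D1 and -0.11 at D10, against -0.008 and -0.013 in the main fit. With at least 50 cells, and without cluster 2, 1 pathway gene was lower at D3 and 2 neighbours at D1. A sort term gave 1 neighbour lower at D1, 1 at D3 and 1 pathway gene higher in macrophages.

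Apoc4 by sex, 0.01, became -0.0232 in DESeq2, -1.08e-05 with median-of-ratios scaling, -0.0214 without the filter, -0.0253 with at least 50 cells and -0.0168 without cluster 2; Apoc4 by sort became 0.00148 without the filter. With the pool term Apoc1 by sex was 0.0821 and Apoe by sort in macrophages 0.63. With D2_infiltrating 1 as male, an alternative chosen after seeing the data, that was 0.0468 (-0.10 with the labelled sex), and 1 pathway gene was higher in macrophages. Replicate numbers did not pair the libraries (correlations of -0.02, 0.09 and 0.07); with the replicate block Apoc4 was -0.14 by sex and 0.14 by sort, with 1 neighbour lower at D1 and 1 pathway gene higher in macrophages.

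Scaled to the UMIs of other genes, D21 microglia had 73254, 713 and 331 CPM of Apoe, Apoc1 and Apoc4. Unthinned, the mean share of microglia with Apoe was 26.8% in controls, 31.6% at D1 and 90.3% at D3, and at D10 36.8% had Apoc1 and 26.2% Apoc4; at 2000 UMIs the D3 and D10 values were 91.0%, 30.1% and 20.4%.

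Leaving out 1 library, D10 against controls ranged from 5.42 to 5.92 for Apoe, 8.37 to 9.01 for Apoc1 and 8.99 to 10.33 for Apoc4. Apoc4 ranged from 5.41 to 7.03 at D3 against D1 and from -0.33 to 1.36 at D1 against controls. By sort in microglia the ranges were -0.18 to 0.34 (Apoe), -0.50 to 0.0361 (Apoc1) and -0.52 to 0.33 (Apoc4), by sex -0.52 to 0.0464 (Apoe, positive without D2_mixed 1) and -0.43 to 0.19 (Apoc4), and by sort in macrophages -0.46 to 0.33 (Apoe). Pathway genes higher ranged from 4 to 10 at D1 and 3 to 10 at D10 (without either control), 3 to 13 at D3 (D3_mixed 1 or 2) and 0 to 2 in macrophages; lower, from 1 to 3 at D3, 0 to 1 at D10 and 2 to 5 in macrophages (D1_infiltrating 2). Neighbours ranged from 1 to 3 higher (Ctrl_mixed 1) and 0 to 2 lower at D1, and 1 to 2 lower at D3. Of the 38 calls given for pathway and locus genes, 10 held in all alternatives, 27 were lost in some and 2 changed sign in some. The causes were not tested. Counts of Apoc1 and Apoc4 before D3 and of Apoc2 throughout were low, and for Apoc2 loss of reads to overlap was not tested.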
